A study of Mus musculus with 7 samples.

Results

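Genes of glycolysis and of the cellular response to low oxygen were followed in sorted cells of the embryonic mouse cerebral cortex with and without knockdown of Trnp1. The set was written by name and held 45 genes, of which 43 had a probe set of their own among the 19938 genes measured. They comprised 20 genes of glycolysis and its transporters (of 22 listed), all 7 listed genes of oxygen sensing, and all 16 other listed targets of hypoxia-inducible factors (HIFs). Gpi1 and Eno1 had no probe set annotated to them alone and were not analysed here, and Ero1l was measured under its current symbol Ero1a.

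Cortices of C57BL/6 mice were electroporated on embryonic day 13 with constructs that also carried green fluorescent protein (GFP). After 24 h, at embryonic day 14, GFP-positive cells were sorted, and their total RNA was hybridised to 1 Affymetrix array per sample. The 4 control samples carry the genotype label WT, and in the other 3 Trnp1, which encodes a nuclear protein of cortical progenitors, was knocked down; sex was not determined in any. The labels call the samples biological replicates but describe neither the constructs nor the number of embryos behind a sample, so p-values measure only the spread between these samples. In such bulk samples a lower share of cells of a type and less RNA per cell cannot be told apart.

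Glycolysis splits glucose into pyruvate in a chain of cytosolic enzymes, and lactate dehydrogenase can turn pyruvate into lactate, which leaves the cell through monocarboxylate transporters. Cells short of oxygen raise this route through HIFs, heterodimers of an alpha subunit (HIF1A, or HIF2A encoded by Epas1) and ARNT. When oxygen is plentiful, prolyl hydroxylases of the Egln family mark the alpha subunits, and the VHL ubiquitin ligase has them degraded, so much of the control acts on protein and not on transcript. Progenitors of the early cortex live in tissue that blood vessels are only starting to enter, and glycolysis is a prominent part of their metabolism.

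Values are deposited log2 levels, on which a difference of 1 is a doubling of signal. Trnp1 itself lay between 4.999 and 5.24 in controls and between 4.55 and 4.85 in knockdown samples (difference -0.40, SE 0.12, limma adjusted p = 0.825). Its exact two-sided permutation p was 0.0286, the smallest that 35 splits allow. In 3.07% of all genes every knockdown sample likewise lay below every control. Markers of the labelled tissue were high on every array, with means of 8.35 to 9.07 for radial glia, 8.71 to 9.13 for intermediate progenitors and 9.04 to 9.82 for neurons. Some arrays held RNA of other cell types. The mean level of 8 endothelial markers was 4.41, 4.64, 4.24 and 6.72 in control replicates 1 to 4 and 7.11, 6.04 and 4.95 in knockdown replicates 1 to 3. The 6 mural cell markers (pericytes and smooth muscle) had means of 4.13 to 4.26 in the first 3 controls, 5.23 in control replicate 4, and 5.72, 4.91 and 4.42 in the knockdown samples. The 5 choroid plexus markers had means of 8.94 in control replicate 4 and 7.08 in knockdown replicate 2 against 3.71 to 4.97 elsewhere. Otx2 read 8.18 and 7.30 there and 3.26 to 3.70 on the other arrays. Ttr was also high in control replicate 3, at 9.86, unlike the other choroid plexus markers. It read 4.00 to 4.34 in control replicates 1 and 2 and knockdown replicates 1 and 3. The 8 microglia markers were also highest in control replicate 4 and knockdown replicate 2, at 8.49 and 7.76, against 5.57 to 7.08 elsewhere. The group medians are therefore also given without control replicate 4 and knockdown replicates 1 and 2. Control replicate 3 was kept there.

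No gene of the set passed the test over all genes. By limma, 0 of the 43 genes, and 0% of all genes, had an adjusted p under 0.05; the smallest adjusted p in the set was 0.825. At an unadjusted limma p under 0.05, 8 of the 43 genes were higher in knockdown samples (Eno2, Ldha, Slc16a3, Egln3, Bnip3, Adm, Ndufa4l2 and Ero1l), where the share over all genes was 2.2%. In the opposite direction 1 gene, Aldoc, met that threshold, where the share over all genes was 3.61%. For 5 genes (Eno2, Ldha, Slc2a3, Ndufa4l2 and Ero1l) every knockdown sample lay above every control, against 2.59% of all genes. In no gene of the set did every knockdown sample lie below every control, against 3.07% of all genes.

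The difference was above 0 for 34 of the 43 genes, against 49.8% of all genes, and 17 were at least 0.5 higher, against 3.6% of all genes. Aldoc alone was at least 0.5 lower, against 4.87% of all genes. The median difference was 0.32 over the 20 glycolytic genes, with 18 above 0, and 0.43 over the 16 other HIF targets, with 14 above 0. It was -0.10 over the 7 oxygen sensing genes, with 2 above 0, and -0.001 over all genes tested. With array medians set equal, 32 of the 43 genes were above 0, against 36.5% of all genes. The gap between glycolytic genes and other HIF targets is given without a test.

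**Figure D1:**
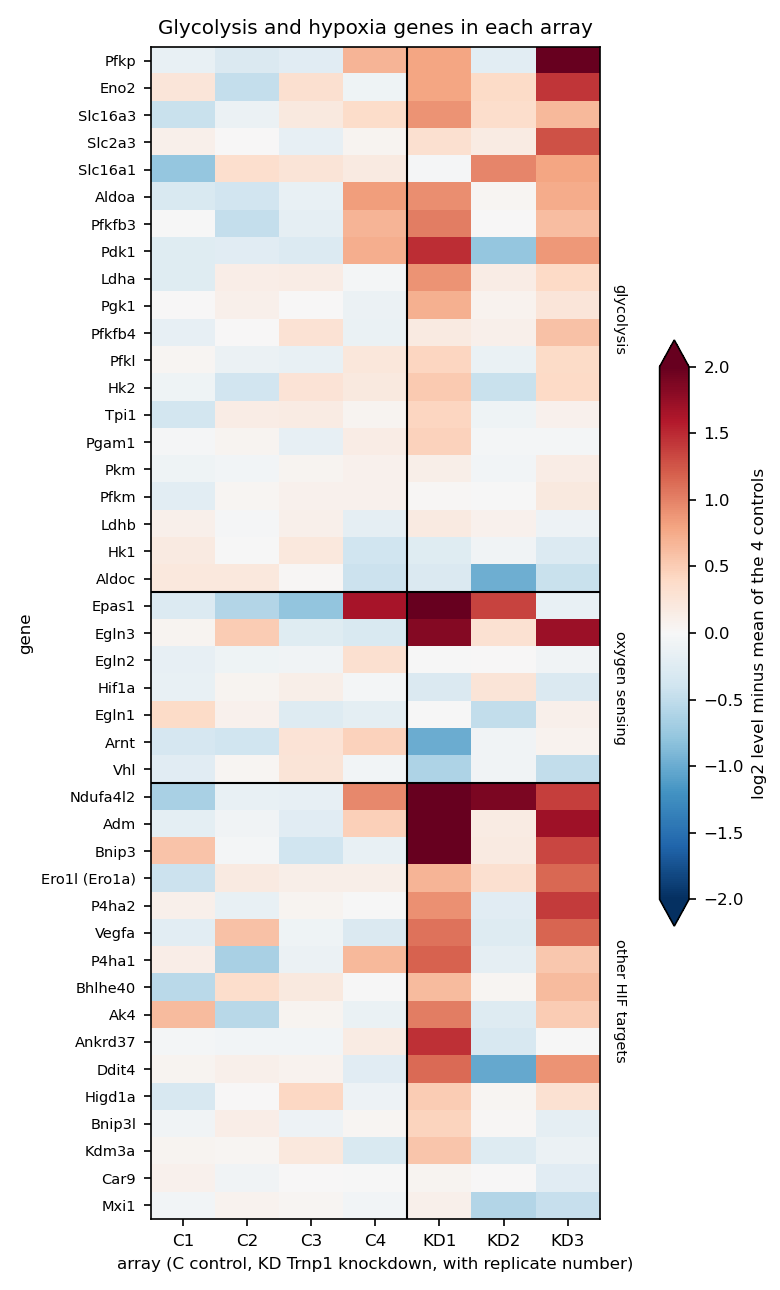
Log2 level of each of the 43 genes in each array minus the mean of the 4 controls (colour scale from -2 to 2, larger values at its ends), genes in rows grouped by role and sorted by difference, arrays in columns. Knockdown replicate 1 lies above all 4 controls for 32 of the genes, knockdown replicate 3 for 22 and knockdown replicate 2 for 7.

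The 3 knockdown samples differed from one another. In knockdown replicate 1, 32 of the 43 genes lay above all 4 controls, against 23.7% of all genes, and in knockdown replicate 3, 22 did, against 25% of all genes. In knockdown replicate 2 only 7 did, against 15% of all genes, while 8 lay below all controls, against 19.7% of all genes, and 28 within their range, against 65.3% of all genes. Below all controls lay 3 genes in knockdown replicate 1, against 23.7% of all genes, and 6 in knockdown replicate 3, against 24.2% of all genes. Measured from each gene's control mean, the glycolytic genes had medians of 0.45, -0.0063 and 0.40 in knockdown replicates 1 to 3, and between -0.087 and 0.081 in the controls. The other HIF targets had medians of 0.96, -0.092 and 0.59, and between -0.050 and 0.021 in the controls. Both groups of genes were thus high in replicates 1 and 3 and near the controls in replicate 2.

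Without knockdown replicate 1 the glycolytic median was 0.14 and that of other HIF targets 0.17; without knockdown replicate 2 they were 0.43 and 0.81. The number of genes with an unadjusted limma p under 0.05 and higher levels was 4 when knockdown replicate 1 was left out, against 1.97% of all genes in that fit. It was 18 for knockdown replicate 2 (4.42% of all genes), 2 for knockdown replicate 3 (2.35%) and 4 for control replicate 2 (1.78%). The number of genes above 0 was 27 when knockdown replicate 1 was left out, against 48.2% of all genes. The smallest adjusted p in the set by limma was 0.168 without knockdown replicate 2, still with 0 calls.

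**Figure D2:**
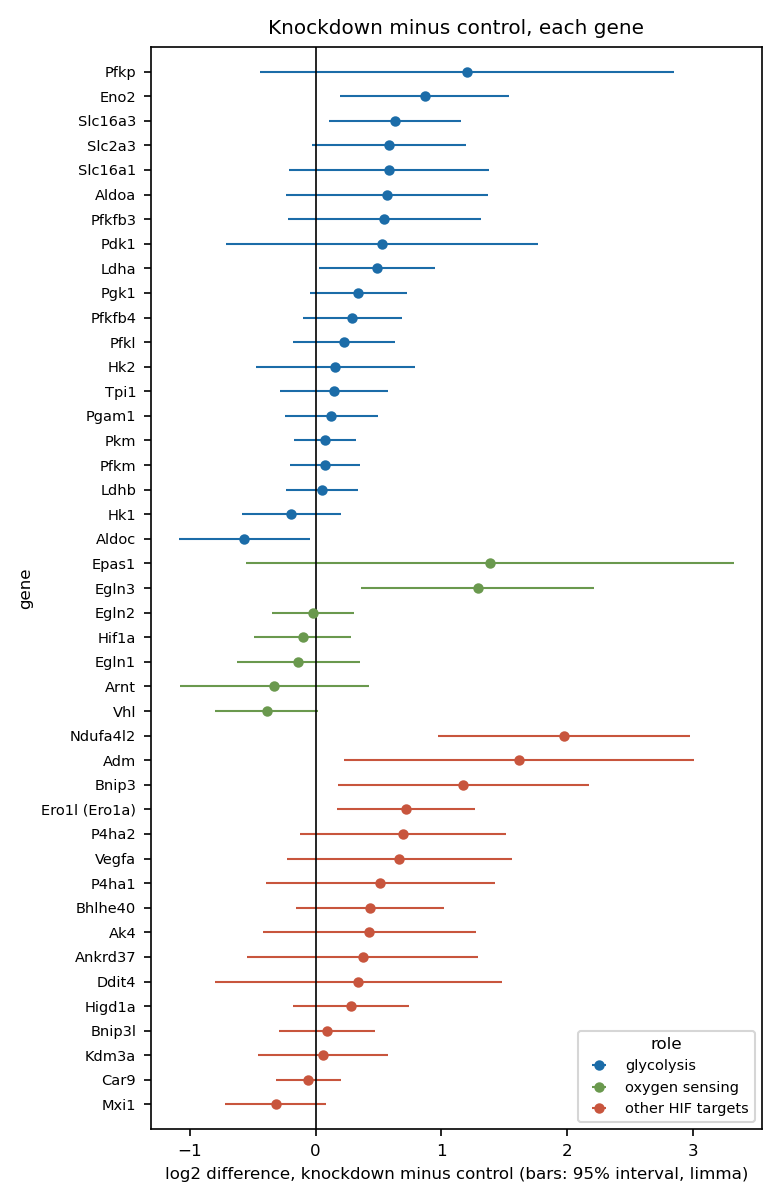
Log2 difference, knockdown minus control, of each of the 43 genes (points) with the 95% interval of limma (bars), grouped by role. The intervals of 8 genes lie wholly above 0 and that of Aldoc wholly below, before any adjustment for the number of genes tested.

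At glucose entry and the first steps, differences between related enzymes were not tested. Slc2a3, the high-affinity glucose transporter of neurons, read 4.66, 4.57, 4.39 and 4.61 in controls and 4.87, 4.72 and 5.83 in knockdown samples (0.58, SE 0.26). Its groups did not overlap, but the 2 lower knockdown samples exceeded the highest control only slightly, and the difference was 0.24 without knockdown replicate 3. Hk1, the main hexokinase of brain, differed by -0.19 (SE 0.17) and Hk2, the hexokinase regulated by HIF, by 0.16 (SE 0.27). A second, dimmer probe set of Hk1 differed by 0.21 (SE 0.19), so the sign for this gene depends on the probe set.

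Phosphofructokinase, which commits glucose to glycolysis, has 3 subunit genes. Pfkl, named for liver, differed by 0.23 (SE 0.17) and Pfkm, named for muscle, by 0.07 (SE 0.12), while Pfkp, the platelet type also found in brain, differed by 1.199 (SE 0.70). Pfkp read 4.03, 3.89, 3.96 and 4.86 in controls and 4.97, 3.97 and 7.21 in knockdown samples. Its mean therefore rests on knockdown replicate 3, without which the difference was 0.29. Pfkfb3 and Pfkfb4 make and remove fructose 2,6-bisphosphate, the activator of phosphofructokinase, and differed by 0.55 (SE 0.33) and 0.29 (SE 0.17). Pfkfb3 was also high in control replicate 4, at 7.63 against 6.48 to 6.95 in the other controls.

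In the middle of the chain the 2 aldolases had differences of opposite sign. Aldoc, the aldolase of brain, read 9.75, 9.75, 9.56 and 9.12 in controls and 9.26, 8.57 and 9.10 in knockdown samples (-0.57, SE 0.22, adjusted p = 0.825 by limma). The groups overlapped only through control replicate 4. Aldoa, the widely expressed form, read 9.74, 9.65, 9.88 and 10.87 in controls and 10.96, 10.07 and 10.77 in knockdown samples (0.57, SE 0.34). Here control replicate 4 was as high as the knockdown samples, and without it the difference was 0.84.

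Of the next enzymes, Pgk1 had a difference close to the median of the whole set, and Tpi1, Pgam1 and Pkm had smaller ones. Tpi1, triosephosphate isomerase, read 9.49, 10.01, 10.02 and 9.92 in controls and 10.29, 9.78 and 9.94 in knockdown samples (0.14, SE 0.18). Pgk1, phosphoglycerate kinase and the first enzyme of the chain to make ATP, read 10.06, 10.14, 10.05 and 9.93 in controls and 10.76, 10.11 and 10.29 in knockdown samples (0.34, SE 0.17). Its 3 probe sets gave 0.34, 0.34 and 0.36 and are not independent, since 2 of them hold equal values. Pgam1, phosphoglycerate mutase, read 9.61, 9.68, 9.47 and 9.79 in controls and 10.09, 9.60 and 9.59 in knockdown samples (0.12, SE 0.16). Another of its 3 probe sets differed by 0.24 (SE 0.20). Pkm, pyruvate kinase, was the steadiest of these genes, at 10.59, 10.63, 10.73 and 10.76 in controls and 10.80, 10.63 and 10.82 in knockdown samples (0.07, SE 0.10). A second, dimmer probe set of Pkm differed by -0.10 (SE 0.11), so the sign for this gene depends on the probe set. Knockdown replicate 1 held the highest value of Tpi1, Pgk1 and Pgam1. For the probe sets used, the intervals of Pkm (-0.17 to 0.32) and Pgam1 (-0.25 to 0.50) lie well within a doubling in either direction.

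Eno2, the enolase of neurons, was one of the genes whose groups did not overlap. Its level was 4.47, 3.74, 4.54 and 4.14 in controls and 5.01, 4.61 and 5.65 in knockdown samples (0.87, SE 0.29, 95% interval 0.19 to 1.54, adjusted p = 0.825 by limma). Knockdown replicate 3 was the highest. Of the 8 neuron markers 2, Map2 (0.11) and Stmn2 (0.33), were above 0, and the median difference was -0.51. At an unadjusted limma p under 0.05, 4 were lower (Neurod1, Neurod2, Neurod6 and Dcx), where the share over all genes was 3.61%. In knockdown replicate 3, 3 of the 8 markers lay above all controls, against 25% of all genes, and 5 below, against 24.2%.

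At the end of the pathway stand the genes for lactate production and export. Ldha, the lactate dehydrogenase subunit favoured in glycolytic cells and a known HIF target, read 8.86, 9.25, 9.25 and 9.07 in controls and 10.01, 9.26 and 9.51 in knockdown samples (0.48, SE 0.20). Its groups did not overlap, though knockdown replicate 2 exceeded the highest control by very little. Ldhb, the subunit of oxidative tissues, differed by 0.05 (SE 0.12, 95% interval -0.23 to 0.34), and its second probe set by -0.18 (SE 0.14). The difference between Ldha and Ldhb was not tested.

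Slc16a3 encodes MCT4, the exporter of lactate in glycolytic cells. It read 6.30, 6.62, 6.94 and 7.11 in controls and 7.64, 7.09 and 7.39 in knockdown samples (0.63, SE 0.22, 95% interval 0.11 to 1.15), and control replicate 4 overlapped knockdown replicate 2. Slc16a1, the more general transporter MCT1, differed by 0.58 (SE 0.34). Its highest value, 5.58, was in knockdown replicate 2, and control replicate 1 was low at 3.83. Pdk1, a kinase that keeps pyruvate out of the mitochondrion, differed by 0.53 (SE 0.53), with knockdown samples from 6.04 to 8.30 on both sides of the controls.

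Of the oxygen sensing genes, Egln3 and Epas1 were above 0 and the other 5 below. Hif1a, whose protein is controlled by oxygen, read 7.99, 8.20, 8.26 and 8.10 in controls and 7.86, 8.40 and 7.85 in knockdown samples (-0.10, SE 0.16). Arnt, its partner, read 6.96, 6.90, 7.57 and 7.75 in controls and 6.31, 7.22 and 7.36 in knockdown samples (-0.33, SE 0.32). Vhl, which targets the alpha subunits for degradation, read 7.45, 7.71, 7.93 and 7.62 in controls and 7.07, 7.61 and 7.19 in knockdown samples (-0.39, SE 0.17). For Hif1a and Vhl, knockdown replicates 1 and 3 lay below all controls and knockdown replicate 2 did not. The direction of Hif1a depended on the scaling, with 0.03 after a further quantile normalization and 0.04 after cyclic loess.

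Of the 3 prolyl hydroxylases, Egln3, itself a HIF target, had the largest difference. Egln3 read 5.30, 5.75, 4.999 and 4.94 in controls and 7.09, 5.55 and 6.96 in knockdown samples (1.29, SE 0.40, 95% interval 0.36 to 2.21). Knockdown replicate 2 lay within the range of the controls, and the other knockdown samples were more than a doubling above it. Egln1, the main oxygen sensor of most cells, read 8.44, 8.14, 7.80 and 7.86 in controls and 8.05, 7.57 and 8.16 in knockdown samples (-0.14, SE 0.21). Egln2 read 7.18, 7.26, 7.26 and 7.66 in controls and 7.33, 7.35 and 7.26 in knockdown samples (-0.02, SE 0.14). Both signs changed with the scaling, to 0.002 and 0.095 after a further quantile normalization.

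Epas1, the HIF alpha subunit prominent in endothelial cells, had a large but scattered difference (1.39, SE 0.83). It read 5.68, 5.38, 5.16 and 7.61 in controls and 8.90, 7.31 and 5.82 in knockdown samples. Control replicate 4 and knockdown replicates 1 and 2, the 3 highest samples, were also the 3 highest for the endothelial marker mean. Without those 3 arrays the difference was 0.41. The part of endothelial RNA in the level of Epas1 was not tested.

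**Figure D3:**
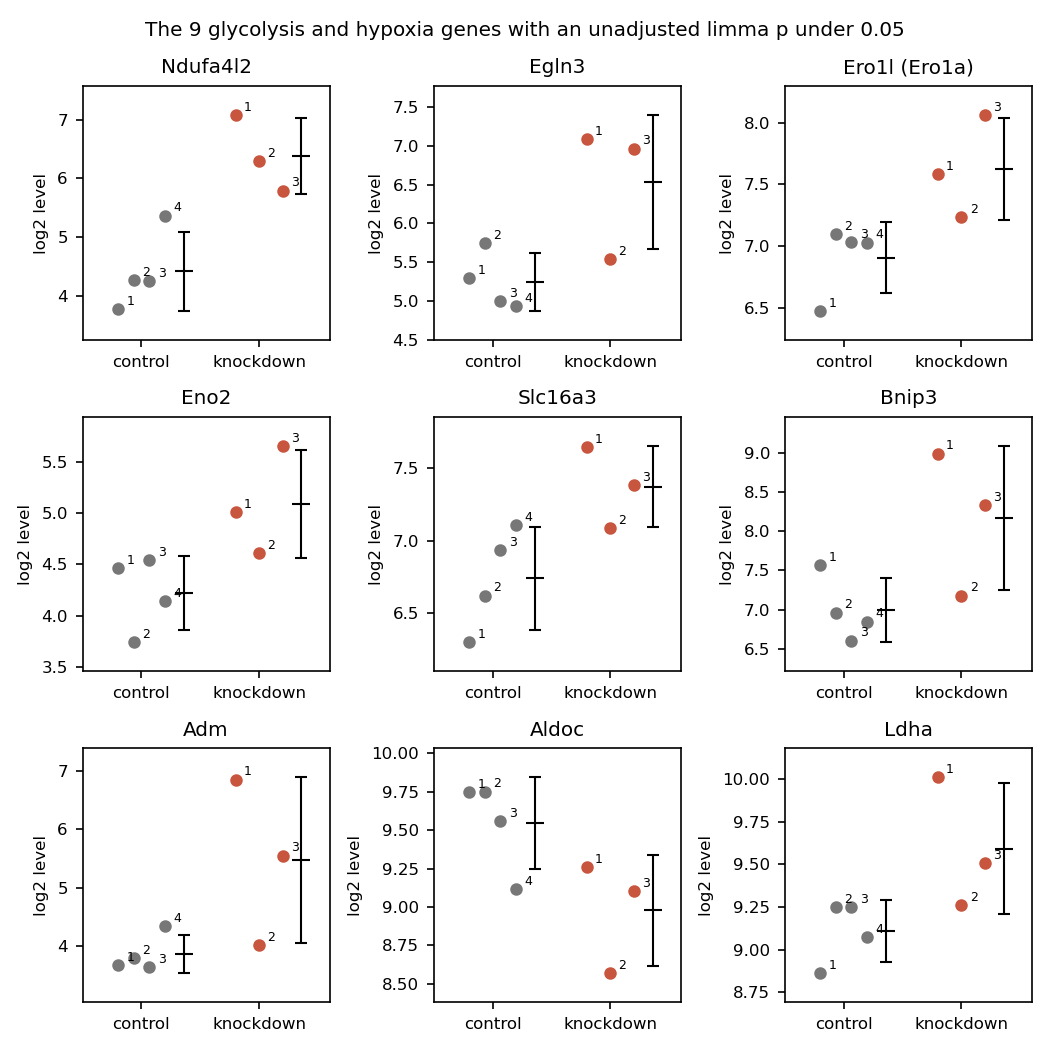
Log2 level of the 9 genes with an unadjusted limma p under 0.05, each with its own axis that does not start at 0: points are arrays with their replicate numbers, and the black mark and bar beside each group are its mean and SD (n = 4 controls, n = 3 knockdown samples). Knockdown replicate 2 is the lowest knockdown sample for 8 of the 9 genes, the exception being Ndufa4l2, where knockdown replicate 3 is lowest.

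Among the other HIF targets, genes of the mitochondrion ranged from the largest difference of the set to almost none. Ndufa4l2, a HIF-induced relative of a respiratory chain subunit, read 3.77, 4.27, 4.25 and 5.37 in controls and 7.08, 6.30 and 5.79 in knockdown samples. The difference was 1.97 (SE 0.43, 95% interval 0.97 to 2.98), or 3.93-fold, with an adjusted p of 0.825 by limma. All knockdown samples lay above all controls, and control replicate 4 was the highest control by over 1. Ndufa4l2 is also a gene of pericytes, and control replicate 4 and knockdown replicates 1 and 2 had the highest mural marker means; the part of mural RNA in its level was not tested. Without these arrays knockdown replicate 3 exceeded the 3 remaining controls by 1.70, a difference that assumes the lone sample to vary like the other group.

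Bnip3 and Bnip3l encode receptors that mark mitochondria for removal. Bnip3 read 7.57, 6.96, 6.60 and 6.85 in controls and 8.99, 7.18 and 8.33 in knockdown samples (1.17, SE 0.43, 95% interval 0.17 to 2.17), and its second probe set gave 1.08 (SE 0.49). Knockdown replicate 2 lay below control replicate 1, so the groups overlapped. Bnip3l differed by 0.09 (SE 0.16). Higd1a, a hypoxia-induced protein of the inner membrane, differed by 0.28 (SE 0.20), and 0.61 (SE 0.28) in its dimmer probe set. Ak4, a mitochondrial adenylate kinase, differed by 0.43 (SE 0.36), and 0.66 (SE 0.23) in its dimmer probe set.

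The secreted factors were high in knockdown replicates 1 and 3. Adm, which encodes the vasodilator peptide adrenomedullin, read 3.67, 3.80, 3.64 and 4.34 in controls and 6.85, 4.02 and 5.55 in knockdown samples (1.61, SE 0.59, 95% interval 0.23 to 3.00). Its spread was wide, with an SD of 1.42 among knockdown samples against 0.33 among controls, and the difference was 0.93 without knockdown replicate 1. Vegfa, the main angiogenic growth factor, read 7.75, 8.54, 7.86 and 7.66 in controls and 9.04, 7.70 and 9.12 in knockdown samples (0.67, SE 0.38). Both groups of Vegfa values overlapped, since knockdown replicate 2 was close to the lowest control.

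Enzymes of protein folding and collagen maturation came next. Ero1l, the oxidase that drives disulfide formation in the endoplasmic reticulum, read 6.48, 7.10, 7.03 and 7.03 in controls and 7.59, 7.24 and 8.06 in knockdown samples (0.72, SE 0.23, 95% interval 0.17 to 1.27). Every knockdown sample was above every control, and control replicate 1 was lower than the other controls. P4ha2, a collagen prolyl hydroxylase, read 3.90, 3.64, 3.85 and 3.78 in controls and 4.70, 3.56 and 5.19 in knockdown samples (0.69, SE 0.35). Knockdown replicate 2 had the lowest P4ha2 value of all arrays. Its relative P4ha1 differed by 0.51 (SE 0.39), and P4ha1 was high in control replicate 4.

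Regulators of transcription and growth went both ways. Bhlhe40, a transcriptional repressor, read 4.94, 5.83, 5.69 and 5.47 in controls and 6.12, 5.52 and 6.12 in knockdown samples (0.43, SE 0.25). Mxi1, which opposes MYC, read 6.50, 6.62, 6.59 and 6.50 in controls and 6.65, 5.97 and 6.09 in knockdown samples (-0.32, SE 0.17). Knockdown replicate 2 lay within the controls for Bhlhe40, and knockdown replicate 1 was the highest of all samples for Mxi1. Kdm3a, a histone demethylase, differed by 0.06 (SE 0.22) and Ddit4, an inhibitor of mTORC1, by 0.34 (SE 0.49). Ddit4 was high in knockdown replicates 1 and 3, at 9.02 and 8.79, and low in knockdown replicate 2, at 6.86, against 7.65 to 7.99 in controls. Ankrd37, an ankyrin repeat protein, differed by 0.37 (SE 0.39). It read 7.36 in knockdown replicate 1, while the other knockdown samples read 5.58 and 5.89 against 5.84 to 6.06 in controls. Car9, a carbonic anhydrase of hypoxic cells, was dim on every array, at 3.22 to 3.53, and differed by -0.06 (SE 0.11).

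HIFs bind DNA at a short core, read here as ACGTG or GCGTG. The 250 bases before the RefSeq start site (GRCm38.p6) were searched on both strands for 38 of the 43 genes. The core was found in 79.3% of their 58 windows, against 46.2% of the 19177 windows of the 15614 tested genes that had a window. The genes were listed partly because they are known HIF targets, so this share is a description. Their windows also hold more G and C (61.7% against 56.4%), whose part in the share was not tested. The palindrome CACGTG, which holds ACGTG on both strands and is also a site of MYC and other E-box factors, occurred in 7 of the 38 genes, against 8.11% of those 15614 genes.

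Shown are the windows of the 4 genes with the smallest p among glycolytic genes and other HIF targets that hold the core, in the direction of transcription, with the core in capitals (CACGT and CACGC are the core on the opposite strand).
Ero1l, chr14:45318573-45318822, minus strand: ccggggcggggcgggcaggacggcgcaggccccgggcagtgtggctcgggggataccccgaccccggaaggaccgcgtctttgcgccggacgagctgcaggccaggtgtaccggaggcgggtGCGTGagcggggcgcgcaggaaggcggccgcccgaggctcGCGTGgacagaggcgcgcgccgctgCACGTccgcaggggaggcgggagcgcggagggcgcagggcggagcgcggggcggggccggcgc
Slc16a3, chr11:120948817-120949066, plus strand: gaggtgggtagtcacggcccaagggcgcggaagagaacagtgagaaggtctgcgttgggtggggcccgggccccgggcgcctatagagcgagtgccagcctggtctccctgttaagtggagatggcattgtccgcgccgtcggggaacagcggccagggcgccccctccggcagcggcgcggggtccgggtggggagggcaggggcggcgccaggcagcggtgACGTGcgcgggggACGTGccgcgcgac
Bnip3, chr7:138909507-138909756, minus strand: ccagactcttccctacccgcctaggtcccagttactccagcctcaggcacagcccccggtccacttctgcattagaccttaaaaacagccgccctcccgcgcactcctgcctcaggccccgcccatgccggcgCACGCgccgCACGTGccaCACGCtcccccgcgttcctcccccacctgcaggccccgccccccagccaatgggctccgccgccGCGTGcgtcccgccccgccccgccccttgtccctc
Adm, chr7:110627407-110627656, plus strand: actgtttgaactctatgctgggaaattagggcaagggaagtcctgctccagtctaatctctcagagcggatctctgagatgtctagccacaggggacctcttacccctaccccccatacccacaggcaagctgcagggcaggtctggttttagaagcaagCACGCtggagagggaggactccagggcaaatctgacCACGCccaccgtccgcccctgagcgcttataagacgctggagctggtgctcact
Bnip3 holds 5 matches, 2 of them the overlapping strands of a CACGTG at position -108 from the start site. Ero1l holds 3, and Slc16a3 and Adm hold 2 each. The core was also present in Pfkl and Ldhb, whose levels differed little. It was absent from the window of Eno2, which had a smaller p than Slc16a3, Bnip3 and Adm, and from those of Tpi1 and Vhl. No match in a window says only that the letters are not there. No window was given for Ndufa4l2, Epas1, Slc2a3, Bnip3l and Bhlhe40.

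Related genes outside the set, listed by pathway, gave a mixed picture, and by limma 0 of them had an adjusted p under 0.05. Of 28 further genes of glycolysis and pyruvate use, 18 were above 0 with a median of 0.06. At an unadjusted limma p under 0.05, 0 were higher and 3 lower, where the shares over all genes were 2.2% and 3.61%. The 3 were the pyruvate dehydrogenase kinases Pdk2 (-0.64, SE 0.23) and Pdk3 (-0.48, SE 0.18) and the dehydrogenase subunit Pdha1 (-0.47, SE 0.17). Pdk1, by contrast, had a positive difference. Of 14 further genes of oxygen sensing 4 were above 0 (median -0.21), with the smallest p for Siah1a (-0.38, SE 0.19), Cul2 (-0.22, SE 0.12) and Cited2 (-0.57, SE 0.33), and 0 were at an unadjusted p under 0.05.

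Of 32 further HIF targets, 24 were above 0 (median 0.22). At an unadjusted limma p under 0.05 there were 4 higher and 1 lower, where the shares over all genes were 2.2% and 3.61%. The smallest p belonged to Sap30 (-0.70, SE 0.18), Tfrc, the transferrin receptor (0.60, SE 0.18), and Wsb1 (0.72, SE 0.24). The respiratory chain went the other way, with 25 of 29 genes below 0 and a median of -0.19. Its genes were bright, with array means of 8.64 to 9.23. With the dimmest 50% of genes left out, 39.3% of the remaining genes were above 0, with a median of -0.079. How far the median of this list depends on the scaling was not tested. Ndufa1 (-0.73, SE 0.18), Ndufb3 (-0.52, SE 0.17) and Uqcrh (-0.38, SE 0.13) had the smallest p. At an unadjusted p under 0.05 by limma, 5 were lower, where the share over all genes was 3.61%, and 0 higher. The medians of the respiratory chain in knockdown replicates 1 to 3 were -0.30, 0.06 and -0.51, so its low medians were in the replicates where glycolytic medians were high.

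Proliferation genes had medians of -0.98, 0.08 and -0.69 in knockdown replicates 1 to 3 and between -0.37 and 0.27 in controls, with a median difference of -0.53 (9 of 11 below 0). Immediate early and heat shock genes had medians of -0.06, 0.31 and -0.70, with 5 of 12 above 0 (median difference -0.10). Hspa1a, the stress-induced HSP70, was higher without overlap (1.85, SE 0.37), against 2.59% of all genes. The next smallest p belonged to Dnajb1, also a heat shock gene (-0.72, SE 0.34), and Fos (-0.50, SE 0.35), both below 0. The integrated stress response list had a median difference of -0.12 (4 of 10 above 0), radial glia markers 0.01 (4 of 8) and intermediate progenitor markers -0.11 (2 of 6). Markers of red blood cells had a median difference of 0.72 (4 of 5 above 0), with means of 6.64 to 7.83 in controls and 7.09 to 8.05 in knockdown samples. The part of these shifts in the levels of glycolysis and hypoxia genes was not tested.

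Endothelial markers were above 0 in 8 of 8 genes (median difference 0.87) and mural markers in 4 of 6 (0.46), with 0 at an unadjusted p under 0.05 by limma. Microglia markers were above 0 in 8 of 8 (0.23) and choroid plexus markers in 0 of 5 (-0.51). Of the genes studied, 8 were higher in control replicate 4 than in the other controls by at least 0.5 (Pfkp, Pfkfb3, Aldoa, Pdk1, Epas1, Adm, Ndufa4l2 and P4ha1), against 6.42% of all genes. Without control replicate 4 and knockdown replicate 2, the glycolytic median was 0.46 and that of other HIF targets 0.86. There 34 of 43 genes were above 0, against 51.5% of all genes. Leaving out knockdown replicate 1 as well set knockdown replicate 3 against 3 controls, and the medians were 0.46 and 0.69. Again 34 of 43 were above 0, against 49.5% of all genes. Knockdown replicate 3 had an endothelial mean of 4.95, above the 4.24 to 4.64 of those controls. Its mean for red blood cell markers was 7.84, against 6.64 to 6.77 in those controls.

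**Figure D4:**
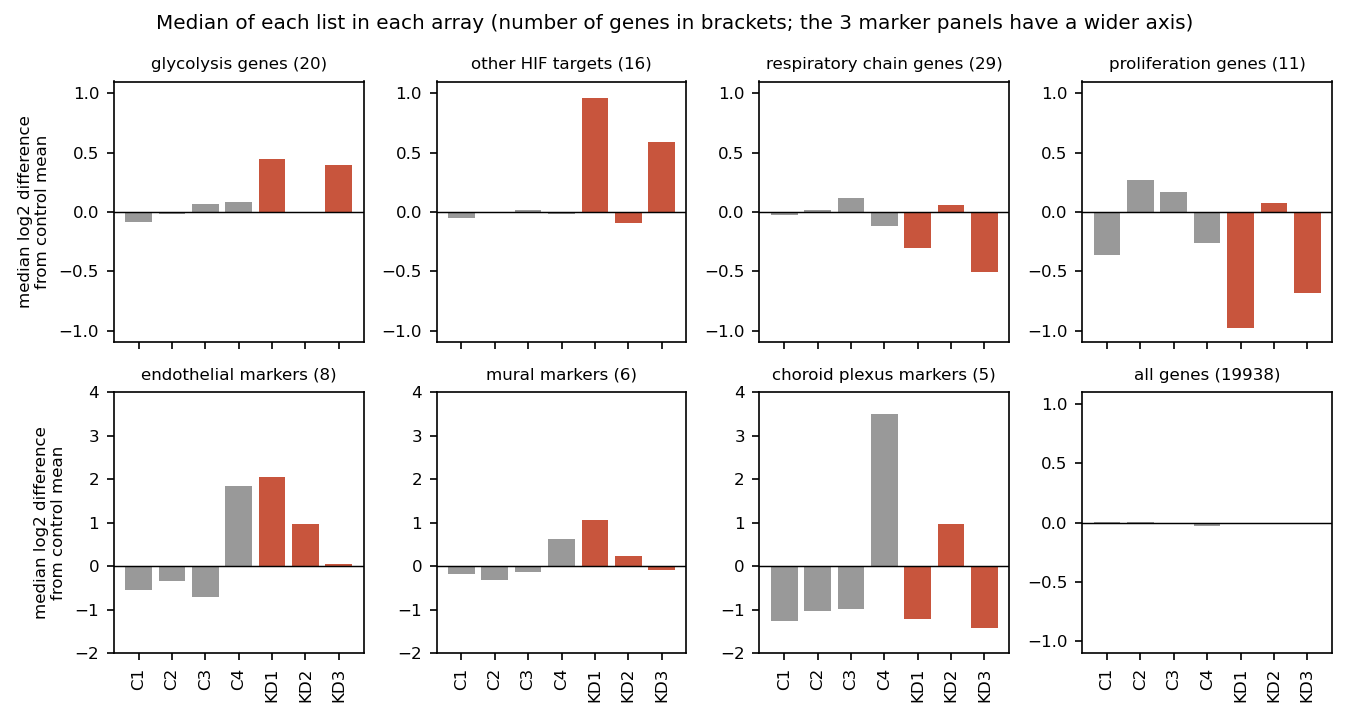
Median over the genes of a list of the log2 level minus the mean of the 4 controls, for each array (C control, KD knockdown, with replicate number; grey and red bars); the number of genes stands in brackets, and the marker panels have a wider axis. Glycolytic genes and other HIF targets are high in KD1 and KD3, where respiratory chain and proliferation genes are low, while endothelial and mural markers are high in C4, KD1 and KD2.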

How the data were processed

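RNA of 4 control and 3 Trnp1 knockdown samples was amplified, biotin-labelled and hybridised to 1 array each. The authors deposited log2 values; the submitters' processing notes name RMA and Affymetrix Expression Console 1.2. The annotation's genome build was not given in the sources used here. Of 35556 probe sets, 21789 had 1 gene symbol, updated through RefSeq (GRCm38.p6); the one brightest on average over the 7 arrays stood for each of 19938 genes, with no filter on low values.

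Differences are knockdown minus control from limma 3.58.1 (R 4.3.3; lmFit and eBayes, two-sided, no covariates), with Benjamini-Hochberg adjustment over all genes and a threshold of 0.05; SE and 95% intervals are limma's. On simulated arrays with 200 of 19938 genes changed, the fit recovered 51.2% of changes of 1 log2 unit and 84.8% of changes of 2, with 6.6 false calls per run. The simulated noise was normal and independent between genes, without the RNA of other cell types seen on some real arrays. These shares check the fit and do not give its power on the real arrays. Alternatives covered moderation, array weights, scaling, dim genes, probe sets, a replicate block and left-out arrays.

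The genes and lists were chosen with earlier results of these data known. Each gene of the set is named; values of every array follow a rule (the 16 with the smallest p, oxygen sensing genes, and Tpi1, Pgk1, Pgam1 and Pkm), and those of Aldoa, Pfkp and single arrays of other genes were added after their values were seen. Other pathway lists name up to 3 genes with the smallest p, and marker lists single genes picked later, such as Otx2 and Ttr. Kdr is on both the endothelial and the further HIF target list. Promoters are shown for the 4 smallest-p genes, among glycolytic genes and other HIF targets, whose window holds the motif.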

Additional observations from a re-analysis of the deposited data

Results flagged for a closer look

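Among the 4 controls, 1 sample stood apart from the other 3 for 7 of 44 genes (the 43 and Trnp1, 15.9%), by a Dixon ratio above 0.829. This ratio is the gap to the nearest control over the range of the controls, so small gaps can be flagged. For Ankrd37 control replicate 4 read 6.058 against 5.839 to 5.855 in the other controls. Chance gives about 1 in 20 for independent, normally distributed values. The share over all genes was not computed, so the count cannot be read as particular to these genes. Control replicate 4 was the high one for Pfkp (4.86), Pdk1 (7.55) and Ankrd37 (6.06), and the low one for Ddit4 (7.65). Control replicate 1 was the low one for Pfkm (6.22), Slc16a1 (3.83) and Ero1a, listed as Ero1l (6.48).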

How the results depend on the processing

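By limma, 0 of all genes and 0 of the 43 had an adjusted p under 0.05 in any fit run, each probe set fitted on its own included, and 0 had one under 0.1 in the reported fit; at an unadjusted p under 0.05, 8 of the 43 were higher and 1 lower there. The median of other HIF targets was 0.86 without control replicate 4 and knockdown replicate 2 together. With 1 array left out, the glycolytic median ran from 0.14 to 0.43 and that of other HIF targets from 0.17 to 0.81. With the dimmest 50% of genes left out, the glycolytic median was 0.16 over 15 genes. Pfkp, Pfkfb4, Eno2, Slc16a1 and Slc2a3 were among the genes left out. The median of other HIF targets was then 0.43 over 13 genes, without Adm, Car9 and P4ha2. The labels do not say that replicate numbers pair the samples. Deviations of same-numbered samples correlated at 0.028, -0.051 and 0.072, and those of other pairs at -0.196 to 0.140. With so few arrays, such values cannot exclude a shared litter or day. With the replicate block, in which control replicate 4 carries no weight, 0 genes were called and the medians were 0.30 and 0.43. In that fit 12 of the 43 genes, against 3.23% of all genes, were higher at an unadjusted limma p under 0.05.

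Over the alternatives 29 of the 43 genes kept their sign. Some alternatives could not change a sign, since other moderation and leaving out dim genes leave each difference as it was. The replicate block gives the same differences as leaving out control replicate 4. Signs changed with array weights for Egln2 (0.020), with equal array medians for Ldhb (-0.012) and Kdm3a (-0.0053), after a further quantile normalization for Hif1a (0.034), Egln1 (0.0020) and Egln2 (0.095), after cyclic loess for Hif1a (0.043), Egln1 (0.0073) and Egln2 (0.093), with the mean over probe sets for Hk1 (0.0060), Pkm (-0.012) and Ldhb (-0.064), and with the replicate block for Ldhb (-0.0033), Egln2 (0.085) and Kdm3a (-0.040). They changed without control replicate 4 and knockdown replicate 2 for Ldhb (-0.020) and Egln2 (0.067), and with knockdown replicate 1 also left out for Ldhb (-0.16), Arnt (0.22), Egln1 (0.027), Egln2 (0.033), Bnip3l (-0.17) and Kdm3a (-0.21). The last 2 sets of arrays were chosen after seeing the data. With 1 array left out, signs changed within -0.17 to 0.72 for Ankrd37, -0.081 to 0.23 for Bnip3l, -0.11 to 0.029 for Car9, -0.061 to 1.02 for Ddit4, -0.25 to 0.040 for Egln1, -0.075 to 0.085 for Egln2, -0.024 to 0.46 for Hk2, -0.19 to 0.22 for Kdm3a, -0.0065 to 0.13 for Ldhb and -0.042 to 0.21 for Pgam1. Beyond leaving out arrays or probe sets, the cause was not tested. Signal over background is not given for dim genes such as Car9, P4ha2, Adm, Eno2, Pfkp and Slc2a3, and the 7 arrays limit precision.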

Other observations

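Some related genes outside the set, picked after their values were seen, were high in control replicate 4 as Epas1 was. Slc2a1, the glucose transporter of the blood-brain barrier and a HIF target, read 8.49, 8.53, 8.55 and 10.03 in controls and 10.54, 9.52 and 9.52 in knockdown samples (0.96, SE 0.45). Igfbp3, a secreted binding protein of insulin-like growth factors, read 5.40, 5.57, 5.29 and 7.84 in controls and 9.97, 6.67 and 7.35 in knockdown samples (1.97, SE 0.92). Kdr, the VEGF receptor of endothelial cells, read 4.48, 4.88, 4.22 and 7.29 in controls and 8.16, 6.29 and 5.53 in knockdown samples. In all 3 genes control replicate 4 lay far above the other controls and every knockdown sample lay above those 3 controls.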
